A study of Drosophila melanogaster with 4 samples.

Results

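In nuclei from heads of wild-type flies, 429 long stretches of the chromosome arms held no region called enriched in either replicate for H3K79me2. This mark is a dimethylated lysine of histone H3. The stretches were chosen by the called regions themselves. Regions called enriched in either replicate of a chromatin immunoprecipitation sequencing experiment (termed clusters) were pooled. Gaps that touched the 2 Mb nearest the centromere were left out. Each other gap of 30 kb or more between neighbouring clusters on X, 2L, 3L and 3R was taken. These are 429 of 6741 gaps, or 6.36%. They add up to 28.0 Mb, which is 31.2% of the 89.9 Mb considered and 50.4% of all cluster-free length in it. The label "euchromatic" rests on the distance from the centromere, since no mark of heterochromatin was measured here.

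The study used Drosophila melanogaster of the wild-type strain Oregon-R, grown in population cages on a 22-day cycle, and collected as mixed adults. The antibody against H3K79me2 was Abcam ab3594, lot 1. The samples are 2 libraries from the immunoprecipitation and 2 input libraries, 1 for each. The heads came from many animals, and the sexes are not given, so the lists describe a mixture of all cell types of the head. A stretch marked in few cells could not be told apart from one marked weakly in many, or in none. The head identity was not checked against marker genes, because gene positions on the genome release of the lists were not used here.

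H3K79 lies in the globular core of histone H3 rather than in its tail. It is methylated by Dot1, called grappa in flies, an enzyme without the SET domain of most histone methyltransferases. The mark is found over the bodies of transcribed genes, often strongest in their 5′ part, and chromatin that is silent in a tissue usually lacks it. In flies, long silent domains are known to include developmental genes held off by Polycomb proteins, clusters of genes used in other tissues and gene-poor sequence.

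A gap of 30 kb or more was uncommon among gaps, while the typical gap was short. The median gap of the pooled lists was 2.21 kb. The median stretch of 30 kb or more was 52.0 kb, with quartiles at 38.2 and 75.7 kb, and the longest was 404 kb. By length, 198 stretches were under 50 kb, 168 were from 50 to 100 kb and 63 were at least 100 kb. The 63 longest held 33.01% of the length of all stretches. Around the 30-kb limit the lengths ran on without a break. The shortest members measured 30.014 kb (2L from 10698316 to 10728329), 30.038 kb (3R from 26035377 to 26065414) and 30.094 kb (3L from 6906810 to 6936903). The longest gaps left out measured 29.960 kb (3L from 2107033 to 2136992), 29.956 kb (2L from 675204 to 705159) and 29.936 kb (2L from 20922997 to 20952932).

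The stretches were spread over all 4 arms considered in similar amounts. They took up 33.1% of X (98 stretches), 31.7% of 2L (102), 30.8% of 3L (114) and 29.6% of 3R (115), with 4.44 (3R) to 5.06 (3L) stretches per Mb. The median length was 55.8 kb on X, 52.5 kb on 2L, 50.1 kb on 3L and 51.5 kb on 3R. Arms are not replicates of each other, so no test of these differences was made. Sequence before the first and after the last cluster of an arm is not a gap between clusters and was not counted. It reached 67.7 kb at the start of 3L and 38.8 kb at the start of 2L. The 47.6 kb at the end of 2L lay in the 2 Mb nearest the centromere, which was left out in any case.

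**Figure D1:**
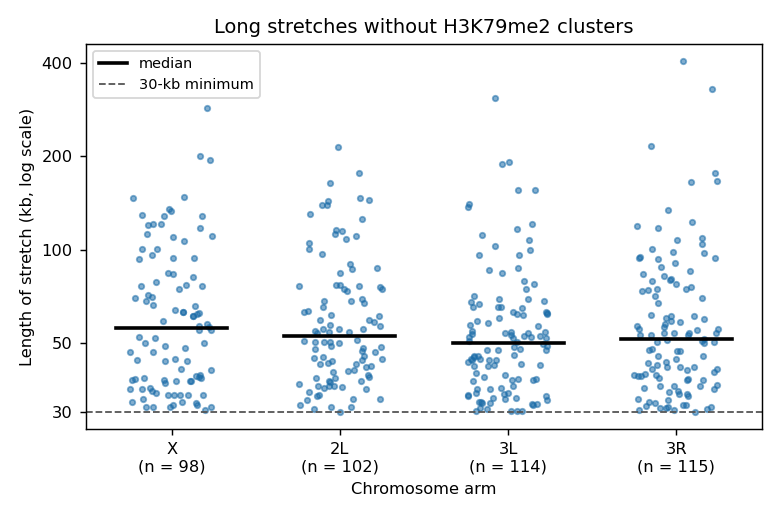
Length of each of the 429 stretches (points, kb, log scale) on X, 2L, 3L and 3R, with the median of each arm as a bar and the 30-kb minimum as a dashed line. The medians lie between 50.1 kb (3L) and 55.8 kb (X), and 1 stretch of 404 kb on 3R stands above all others.

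The amount of such sequence depended on the replicate. The list of replicate 1 alone gave 580 gaps of 30 kb or more (12.1% of its 4811 gaps), which took up 49.3% of the length considered. The list of replicate 2 alone gave 458 (5.88% of its 7795 gaps), which took up 32.96% (41.1% ± 11.6, SD, n = 2). On each of the 4 arms replicate 1 had the larger share, from 47.9% on 3R to 51.5% on 2L, against 30.6% on 3R to 35.8% on X in replicate 2. Replicate 2 had more clusters on these arms (8186 against 5084), and the sequencing depth behind either list is unknown. The share of the length covered by clusters differed less, 30.7% in replicate 2 against 27.9% in replicate 1. The pooled stretches are therefore mostly the gaps of replicate 2. Of the 429, 265 were exactly a gap of replicate 2 and 20 exactly a gap of replicate 1.

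The same sequence was sparsely covered in the replicate that had not chosen it. Inside the 580 gaps of replicate 1 alone, clusters of replicate 2 covered 8.48% of 44.3 Mb, against 52.2% of the rest of the same arms. Inside the 458 gaps of replicate 2 alone, clusters of replicate 1 covered 1.72% of 29.6 Mb, against 40.7% of the rest. The coverage inside was thus 0.16 and 0.042 times that outside. On each arm the coverage inside was below that of the rest. Inside the gaps, replicate 2 covered from 7.72% (2L) to 9.26% (3R), and replicate 1 covered from 1.17% (3R) to 2.24% (X). The arms differed more in replicate 1, where coverage inside was 0.029 (3R) to 0.057 (X) times that outside. Each direction rests on 1 library, so no p is given. Whether reads could be placed uniquely in these gaps was not examined.

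**Figure D2:**
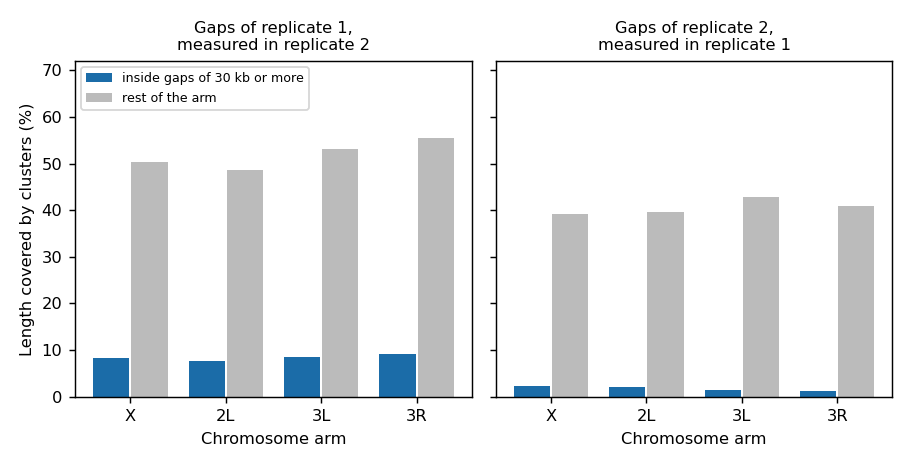
Share of length covered by clusters (%), inside gaps of 30 kb or more (blue) and over the rest of each arm (grey), with the gaps taken from 1 replicate and the coverage from the other. Coverage inside was at most 9.26% in replicate 2 and 2.24% in replicate 1, against at least 48.7% and 39.3% outside.

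Shorter gaps were covered more by the other replicate than longer ones. In gaps of 10 to 30 kb from replicate 1 (628 gaps), replicate 2 covered 19.9%, and in its gaps of 100 kb or more (125 gaps), 5.20%. In the other direction the values were 9.21% (975 gaps) and 1.06% (65 gaps). By construction more of a short gap lies near an edge, where coverage was higher. In gaps of 30 kb or more from replicate 1, replicate 2 covered 33.8% of the first 1 kb inside. From 14 to 15 kb inside it covered 8.60%, and the other direction gave 11.4% and 0.77%. How much of the difference by length comes from the edges was not tested. Few gaps of replicate 1 were wholly empty in replicate 2, 20 of 580 or 3.45%, whereas 265 of the 458 gaps of replicate 2, or 57.9%, held no base of a replicate 1 cluster. When the lists were pooled, 212 of the 580 gaps of replicate 1 had no piece of 30 kb left, and 49 were broken into more than 1 such piece. Of the 458 gaps of replicate 2, 30 had none left.

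The clusters of replicate 2 that lay wholly in gaps of replicate 1 were mostly narrow and of low score. Of 8186 clusters of replicate 2 on these arms, 2222 met such a gap and 1540 lay wholly inside. Clusters that crossed an edge were left out of the widths and scores, which favours narrow ones by construction. Those wholly inside had a median width of 1795 bp, against 2485 bp over the list. Their median score stood at percentile 30.7 of the list. By quartile of the authors' score, 29.8% of the lowest quartile lay inside (95% Wilson interval 27.9 to 31.8), 30.0% of the second (28.1 to 32.1), 14.5% of the third (13.0 to 16.1) and 0.93% of the highest (0.60 to 1.45). The 2 lower quartiles were thus alike, and the highest stood far below both. In the other direction 287 of 5084 clusters of replicate 1 met a gap of replicate 2, and 111 lay wholly inside. From the lowest to the highest quartile, 4.48%, 2.99%, 1.18% and 0.079% lay wholly inside. The intervals cover counting error over clusters, and neighbouring clusters are not independent. With only clusters at or above the median score, replicate 2 covered 3.04% of the gaps of replicate 1, and replicate 1 covered 0.764% of those of replicate 2. With clusters of all scores but without the outer 5 kb of each gap, replicate 2 covered 6.97% and replicate 1 covered 0.885%.

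The gaps of 1 replicate with the most bases covered in the other show what such disagreement looks like. The 370-kb gap of replicate 1 on 3L from 13508725 to 13878919 held 30 clusters of replicate 2, which covered 70.1 kb, or 18.9%. The 229-kb gap on 2L from 4466699 to 4696119 held 20 (40.5 kb, 17.7%), and the 70.8-kb gap on 3R from 23570758 to 23641592 held 14 (39.7 kb, 56.1%). In each of these 3 gaps, which were picked for the bases covered, the coverage was spread over many clusters. Of the gaps of replicate 2, that on 2L from 17897754 to 18045872 held 9 clusters of replicate 1 over 27.3 kb, or 18.4%. Those on X from 3065264 to 3135514 and from 548966 to 606807 held 7 (31.0%) and 4 (36.3%).

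The longest stretch of all was on 3R, and both replicates bounded it at almost the same places. It ran from 2485901 to 2889996, 404.1 kb, where the gap of replicate 1 measured 404.4 kb and that of replicate 2 404.1 kb. The second, also on 3R, ran from 12480905 to 12810827, 329.9 kb, and the gaps measured 333.8 kb in replicate 1 and 335.1 kb in replicate 2. By the rule both replicates are empty over a stretch, and in these 2 neither replicate's own gap was much longer than the stretch. The next on 3R, from 8541890 to 8757119, was 215.2 kb, and there the gap of replicate 1 was longer, 242.7 kb against 215.4 kb in replicate 2.

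On X the 3 longest stretches were bounded alike in both replicates. The first, from 7221365 to 7506570, measured 285.2 kb, with gaps of 286.4 kb in replicate 1 and 292.2 kb in replicate 2. The stretch from 13893410 to 14094230 measured 200.8 kb, with gaps of 201.6 and 200.8 kb. That from 170358 to 365432, near the distal end of the arm, measured 195.1 kb, with gaps of 196.0 kb in each replicate. In each case the gaps of both replicates were close to the stretch in length, and neither replicate was longer throughout.

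On 2L the longest stretch, from 20097818 to 20312545, measured 214.7 kb, with gaps of 215.1 kb in replicate 1 and 214.8 kb in replicate 2. The next ran from 5341299 to 5518182, 176.9 kb, and the gaps were 189.6 and 176.9 kb. The stretch from 16005686 to 16169156 measured 163.5 kb, with gaps of 164.9 and 163.7 kb. The replicates differed most at the second of these, where the gap of replicate 1 was the longer.

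On 3L the replicates differed at the first and last of the 3. The stretch from 18172206 to 18480705 measured 308.5 kb, inside a gap of 440.5 kb in replicate 1, the longest gap of either replicate that held a stretch, and of 311.9 kb in replicate 2. That from 5361771 to 5553001 measured 191.2 kb, with gaps of 191.2 and 191.3 kb. That from 20520994 to 20709212 measured 188.2 kb, with gaps of 241.6 and 189.4 kb. Where the replicates differed here, the gap of replicate 1 was the longer.

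**Figure D3:**
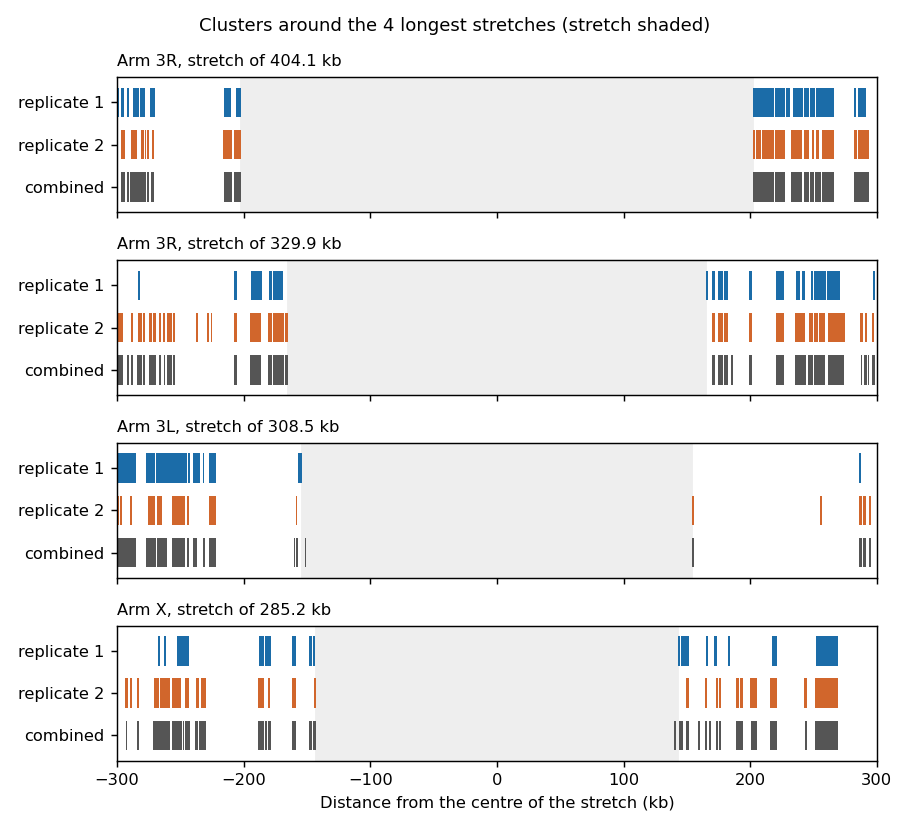
Clusters of replicate 1, replicate 2 and the authors' combined list within 300 kb of the centre of the 4 longest stretches (shaded), by distance from the centre in kb. On the 404.1-kb stretch both replicates have clusters up to both edges, and beside the 308.5-kb stretch on 3L a single narrow cluster of replicate 2 sets the right edge.

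Over all stretches the gap of replicate 1 reached further than that of replicate 2. The gap of replicate 1 around a stretch was 1.31 times as long as the stretch in the median, and over 1.5 times as long for 171 of 429. That of replicate 2 was within 1.1 times for 406, or 94.6%. Among the 63 stretches of 100 kb or more, the gap of replicate 1 was within 1.1 times for 36, while among the 198 under 50 kb it was so for 53. By this measure long stretches were more often bounded alike than short ones, but 1.1 times allows more bases on a long stretch by construction. A short stretch can also be a fragment of a long gap of replicate 1.

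**Figure D4:**
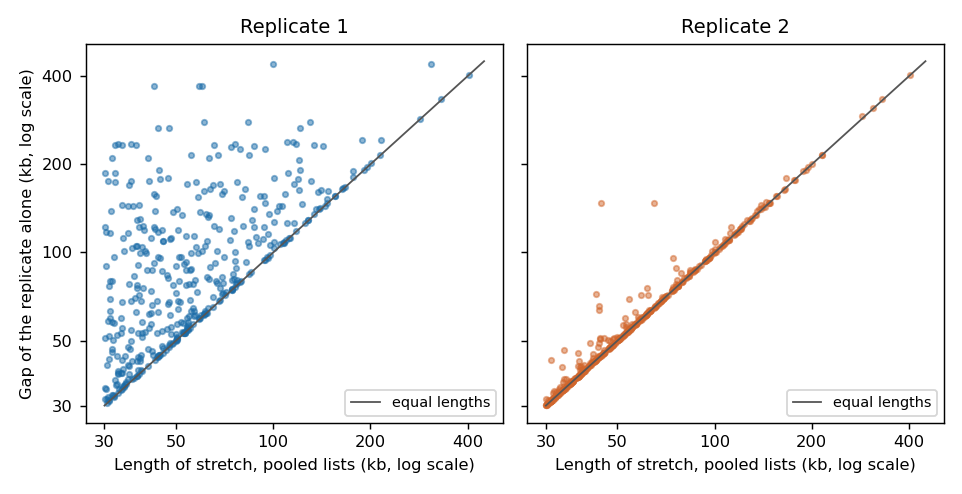
Length of the gap of replicate 1 (left) and replicate 2 (right) that holds each stretch (y axis, kb, log scale) against the length of the stretch in the pooled lists (x axis, kb, log scale), 1 point for each of 429 stretches. Points of replicate 2 lie near the line of equal lengths (406 within 1.1 times), and 171 points of replicate 1 lie more than 1.5 times above it.

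Cluster coverage changed steeply at the edges, as seen in the replicate that had not set them. At the edges of the gaps of replicate 1, replicate 2 covered 78.5% of the sequence from 1 to 2 kb outside, 74.3% of the last 1 kb outside, 33.8% of the first 1 kb inside and 17.5% of the next, over 1160 edges. From 14 to 15 kb inside it covered 8.60%. At the edges of the gaps of replicate 2, replicate 1 covered 47.0% from 1 to 2 kb outside, 37.2% of the last 1 kb, 11.4% of the first 1 kb inside and 0.77% from 14 to 15 kb inside, over 916 edges. Coverage thus fell within about 2 kb of the edge in both directions. From 19 to 20 kb outside it was 38.6% and 29.5%, lower than beside the edge, where the choosing replicate has a cluster by definition.

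**Figure D5:**
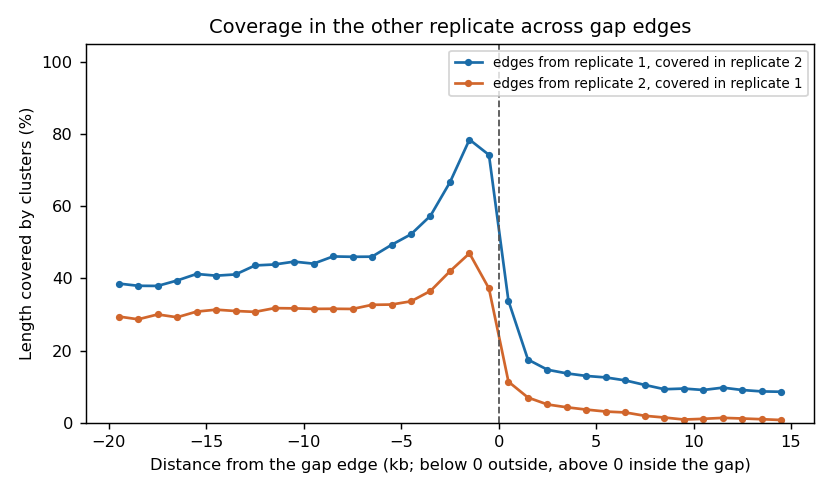
Share of length covered by clusters of the other replicate (%), in steps of 1 kb from 20 kb outside to 15 kb inside the gap, averaged over all gap edges. Coverage falls from 78.5% to 17.5% (edges from replicate 1) and from 47.0% to 7.00% (edges from replicate 2) between the second step outside and the second step inside.

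Edges of the pooled stretches were set by replicate 2 in 673 of 858 cases and by replicate 1 in 184, and at 1 edge both replicates ended at the same base. The nearest cluster of the other replicate began within 1 kb of the edge in 327 cases, 38.1% (95% Wilson interval 34.9 to 41.4). For gaps of 10 to 30 kb this share was 30.8% (517 of 1676, 28.7 to 33.1). It was 33.1% for stretches under 50 kb (28.6 to 37.9) and 41.7% from 50 to 100 kb (36.5 to 47.0). From 100 kb it was 44.4% (36.1 to 53.2), an interval that overlaps both. When replicate 1 set the edge, the cluster of replicate 2 lay a median of 795 bp further out. When replicate 2 set it, that of replicate 1 lay 5444 bp further out. At 59 stretches both edges were shared within 1 kb, 15 of them among the 63 of 100 kb or more. Intervals cover counting error over edges, and the edges of a stretch are not independent.

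The clusters that bound each replicate's own gap around a stretch, here called flanking, were ordinary ones. Such a cluster need not set the edge of the stretch. In replicate 1 the flanking clusters had a median width of 3247 bp, against 3426.5 bp over its list on these arms, and a median score at percentile 52.2. In replicate 2 they had 2357 bp, against 2485 bp, and percentile 47.9. Clusters of 10 kb or wider made up 7.85% of the flanks in replicate 1, against 10.5% of the list, and 3.15% in replicate 2, against 3.57%. The highest score quartile made up 22.9% of the flanks in replicate 1 and 26.3% in replicate 2, close to the 25% that a quartile holds. The gaps of each replicate around the stretches were thus bounded by clusters much like those of its whole list. The clusters that set the edges of the stretches were not measured apart.

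Some stretches came in runs parted by a narrow marked island. In 62 of the 425 places between neighbouring stretches, no more than 10 kb lay between a stretch and the next. Of the 429 stretches, 111 (25.9%) stood in 49 such runs. No such share is given here for gaps of other lengths. The island was a median of 2692.5 bp wide, from 1309 to 9358 bp. Of the 62 islands, 40 had clusters of replicate 2 alone, 1 of replicate 1 alone and 21 of both. Islands in both replicates were wider, with a median of 4953 bp against 1802.5 bp for those of replicate 2 alone. They also scored higher in replicate 2, with a median percentile of 75.7 against 34.7 for their highest cluster. The list was pooled so that a cluster of either replicate ends a stretch, so a single narrow call is enough to part a run.

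The 5 widest runs spanned 228 to 477 kb. The free share of a run is high by construction, since stretches of 30 kb or more are parted by at most 10 kb, and it was at least 90.2% in all 49 runs. On 3L, 3 stretches from 18104553 to 18581925 spanned 477 kb, 98.7% of it free, and included the 308.5-kb stretch. On 2L, 4 stretches from 15771172 to 16231293 spanned 460 kb, 97.9% free. On X, 4 stretches from 9578727 to 9953767 spanned 375 kb, 98.2% free. The next were 334 kb on 3L from 15157495 to 15491476 (3 stretches) and 228 kb on 2L from 14689563 to 14917532 (2 stretches). The first 2 of these runs were each longer than the longest single stretch.

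Islands inside these runs differed in how well they were shared. In the run on 3L, the island from 18167404 to 18172205 held clusters of both replicates, which covered 64.8% of it in replicate 1 and 29.9% in replicate 2. The other, from 18480706 to 18482184, was 1479 bp of replicate 2 alone, at percentile 34.5 of its scores. In the run on 2L, the island from 16169157 to 16174188 was covered to 96.6% and 95.5%, at percentiles 85.1 and 92.7. The same run held another island called in both replicates, from 16002716 to 16005685, at percentiles 32.7 and 3.12, and 1 of replicate 2 alone. In the run's stretch from 15915836 to 16002715 the combined list had 3904 bp of clusters.

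Along the arms the stretches were unevenly spaced. In 88 windows of 1 Mb their share had a median of 31.4%, from 3.90% to 63.2%. Of these windows 10 were above 50% and 6 below 10%, and each arm had at least 2 above 50%. The highest were 3R from 2000001 to 3000000 (63.2%), X from 7000001 to 8000000 (57.3%) and 3L from 18000001 to 19000000 (57.0%). The lowest was 3R from 5000001 to 6000000, with a single stretch and 3.90%, where the gaps of replicate 1 alone took up 14.2% and those of replicate 2 alone 3.90%. The highest and the lowest window thus both lay near the proximal end of 3R. On X no window was below 10%, the lowest being 12.8%.

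X had slightly more of its length in long stretches than the 3 autosomal arms considered together, 33.1% against 30.6%, a ratio of 1.08. Arm 2R was not taken by the rule, so the autosomal values leave it out. The ratio was 1.01 in replicate 1 alone and 1.12 in replicate 2 alone. Among stretches of 100 kb or more, of which X had 20 and the autosomal arms 43, it was 1.44, with 1.23 in replicate 1 and 1.38 in replicate 2. With each list cut down to its higher-scoring clusters, from the median score up, the ratio for stretches of 30 kb or more turned to 0.82. The direction on X therefore rested on which clusters were counted.

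The stretches were nearly empty in the authors' combined list too, which was made from these libraries and so adds no separate evidence. It covered 110.9 kb, or 0.40%, of their length, against 50.8% of the rest. Of 429 stretches 240 held no base of a combined cluster. In 172 places a combined cluster crossed an edge, by a median of 41 bp. Another 74 combined clusters, in 61 stretches, lay wholly inside, where neither replicate had a call. These were narrow, from 1001 to 1923 bp with a median of 1179.5 bp, against 2723.5 bp over the list. Their median score stood at percentile 23.2. Their median width was also below the 1309 bp of the narrowest island between stretches, a single cluster of replicate 2. Whether the lists differ in the smallest width called was not tested. Of the 74, X and 2L held 23 each, and 3L and 3R held 14 each.

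The 5 stretches most covered in the combined list were of moderate length. They were X from 10901261 to 10969448 (68.2 kb, 8.33% covered), 3L from 10411442 to 10454328 (42.9 kb, 7.54%), X from 16345128 to 16407359 (62.2 kb, 7.15%), 2L from 17965502 to 18010005 (44.5 kb, 7.04%) and 3L from 2266639 to 2328479 (61.8 kb, 6.67%). None of the 5 was among the 100 longest. In 3 of them both edges were set by replicate 1, and in the stretch on 2L the gap of replicate 2 reached 148 kb.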

How the data were processed

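Regions of H3K79me2 in adult heads were analysed in 2 ChIP replicates. The submitters' processing notes name Bowtie 0.12.7. The authors deposited 1 list per ChIP replicate and 1 combined list, on FlyBase release 5, per the file headers. Each line holds the start and end of a region, counted from 1, and a score. The score deposited by the authors has no stated scale and was used only as a rank within a list. For the caller, its thresholds, the use of input and the combining of replicates, nothing is given in the sources used here. No counts or coverage were analysed, so depth is unknown. Sequence outside the lists lacks a call, which does not show that it lacks the mark.

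Gaps were computed from the pooled clusters with numpy 2.4.6 under Python 3.11.15, tabulated with pandas 2.3.3, given Wilson intervals with scipy 1.17.1 and drawn with matplotlib 3.10.9. Arm lengths came from the file headers. The gap finder was tested on simulated data, where it recovered all stretches on 40 of 40 simulated arms. No test gives a p here, since the stretches were chosen by the measurement itself and the group has 2 libraries. The labels do not state that the replicates are separate collections of flies, so their spread may be technical. Members, lists and tests were chosen with earlier results of these data known. Regions to name were the 3 longest of each arm and the 10 longest, which the former include, the 3 lengths on either side of 30 kb, the 5 widest runs, the 5 most covered in the combined list, those that meet a depleted region, and for each replicate the 3 gaps with the most bases covered in the other. The 1-Mb windows, score quartiles, length classes and the single islands described were chosen after their values were seen. Genes were not placed on the stretches, because the only gene table used is on release 6, and no genome sequence was used.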

Additional observations from a re-analysis of the deposited data

Results flagged for a closer look

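Regions called depleted, which chose none of the stretches, were examined separately. Replicate 2 had 62 of them on the sequence considered, and 4 met a long stretch, 3 of which lay wholly inside. That is 6.45% of the depleted regions (95% Wilson interval 2.54 to 15.4, counting error over regions only), while the stretches hold 31.2% of the length. Gaps under 30 kb, which hold 30.6% of the length, had 13 of the depleted regions away from any cluster, and 46 touched a cluster of either replicate. The list of replicate 1 held no depleted region, and none of the 6 in the combined list met a stretch. The difference rests on 1 library and was not tested.

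The 4 regions lay on 2L from 1554654 to 1556324 and from 18388006 to 18389601, and on 3L from 15829008 to 15830873 and from 18554132 to 18555754. The last was 26.2 kb from the nearest edge of its 99.7-kb stretch, which belongs to the 477-kb run on 3L. The other 3 lay within 2042 bp of an edge or across it. These 3 also met an enriched cluster of the combined list, at percentiles 0.20, 0.54 and 4.13 of its scores, while the last met none. Of all 62 depleted regions of replicate 2, 59 met an enriched cluster of the combined list.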

How the results depend on the processing

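Of 35 alternative values, 18 stayed within the limits used, which were 1.5 times for counts and for coverage inside the gaps of the other replicate, 1 SD between the replicates for other shares and ratios, and the Wilson interval for edges, while a value with no such spread counted as moved by any change. The number of stretches was 458 to 580 with 1 replicate left out, 660 from 20 kb and 231 from 50 kb. Their share of the length was 32.96% to 49.3% with 1 replicate left out and 49.4% with clusters at or above the median score, which leaves fewer clusters by construction. Coverage by replicate 2 inside gaps of replicate 1 was 3.04% with that filter on its clusters and 5.20% in gaps from 100 kb. Without the outer 5 kb of each gap this coverage was 6.97%. In the other direction it was 0.764% with that filter, 1.06% from 100 kb and 0.885% without the outer 5 kb of each gap. The X ratio ran from 1.01 to 1.12 with 1 replicate left out, was 0.818 with clusters at or above the median score, below equality, and 1.44 from 100 kb. The cause of the change on X was not tested. Coverage in the combined list was 0.209% without the outer 5 kb of each stretch and 0.0523% with its clusters at or above the median score. Edges shared within 5 kb made up 56.3%. Islands of up to 30 kb numbered 113, with a median of 7810 bp, by construction. Depleted regions of replicate 2 that met a gap of 20 kb or more numbered 7. The values from 100 kb, the count of wider islands and that of depleted regions from 20 kb were added after seeing the data. Gene content and base composition were not run as alternatives, since they need release 5 sequence. No paired analysis was possible because the lists used give nothing for the input libraries, with which the ChIP libraries share replicate numbers.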

Other observations

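The 2-Mb ends near the centromere, which were left out, differed between arms. Gaps of 30 kb or more took up 86.8% of that end of 3L, 72.1% of 2L, 69.2% of X and 21.4% of 3R, with the longest at 506 kb on 3L. The end of 3R was thus below the 29.6% of the rest of that arm, while the other 3 ends were above the rest of their arms, which had 30.8% to 33.1%.

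Of the 74 combined clusters inside stretches without a call in either replicate, 1 had a high score. It was 1001 bp on 2L from 10863472 to 10864472, at percentile 95.01 of the combined scores, and the next highest of the 74 stood at 55.5. It was singled out after its value was seen. It was narrower than the narrowest island between stretches, 1309 bp, and a difference between the lists in the smallest width called was not tested.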
